A study of Mus musculus with 2 samples.

Results

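The cells described here are 58 myeloid cells that carried transcripts of Pf4, Maf or Stab1 but next to none of complement C1q, out of 3710 cells kept from 2 mouse cultures. They were selected on these values: at least 200 detected genes, under 10% mitochondrial UMIs (unique molecular identifiers, counted molecules), at least 2000 UMIs, at least 2 UMIs of Pf4, Maf and Stab1 together, at most 1 UMI of C1qa, C1qb and C1qc together and under 5 UMIs of the cycling genes Mki67 and Top2a. Of 2613 cells with 2000 or more UMIs, 43 of 1429 in the DMSO library and 15 of 1184 in the selinexor library met this rule. They are called members below.

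Both libraries were myeloid-derived suppressor cells, immature myeloid cells known for dampening T cell responses, differentiated in culture with IL-6 and GM-CSF at 40 ng/mL each and taken at day 4. One culture was kept in DMSO, the solvent control, and its counterpart in 50 nM selinexor, an inhibitor of the nuclear export receptor exportin 1, which is encoded by Xpo1. Mouse strain, source organ and number of animals per culture were not given in the sources used here. Viable cells were sorted on CD11b, tagged with feature barcodes and pooled before capture on the 10x Genomics platform, so cells without CD11b were removed before sequencing. Each group held 1 library. No difference therefore has a replicate check, no test was run, and every interval below is a 95% interval that covers counting error only.

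Pf4 encodes platelet factor 4 (CXCL4), a chemokine stored in platelet granules that some macrophages also transcribe. Maf encodes the transcription factor c-MAF, active in resident and anti-inflammatory macrophages, and Stab1 encodes stabilin-1, a scavenger receptor of macrophages and of the endothelium that lines liver and lymphoid sinuses. C1qa, C1qb and C1qc encode the chains of C1q, the complement component that recognises bound antibody and dying cells and that resident macrophages make in quantity. Macrophages in culture arise from monocytes under growth factors such as GM-CSF, and their shared equipment includes the receptor for CSF1, scavenger receptors, lysosomal enzymes and matrix proteases.

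On build mm10, Pf4 lies on chr5:90772435-90773383 (plus strand), Maf on chr8:115682942-115707794 (minus strand) and Stab1 on chr14:31139013-31168641 (minus strand), all 3 as protein-coding genes. The promoters of 2 of the genes that defined the members, and of Dab2, a gene high in the members, are shown because they are the start sites the selection and the identity below rest on. They are RefSeq sequences of build GRCm38.p6 from 250 bases before to 50 bases after the start. Capitals mark exact matches on either strand to TGCTGA, a half-site of MAF factors, or to AGGAAGT, a core of the myeloid factor PU.1.
Pf4, chr5:90772185-90772484, plus strand: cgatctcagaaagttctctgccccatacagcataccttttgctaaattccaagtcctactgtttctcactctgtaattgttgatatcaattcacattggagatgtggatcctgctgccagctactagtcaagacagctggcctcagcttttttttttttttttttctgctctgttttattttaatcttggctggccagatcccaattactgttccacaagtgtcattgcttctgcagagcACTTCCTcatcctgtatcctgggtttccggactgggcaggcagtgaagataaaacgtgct
Stab1, chr14:31168592-31168891, minus strand: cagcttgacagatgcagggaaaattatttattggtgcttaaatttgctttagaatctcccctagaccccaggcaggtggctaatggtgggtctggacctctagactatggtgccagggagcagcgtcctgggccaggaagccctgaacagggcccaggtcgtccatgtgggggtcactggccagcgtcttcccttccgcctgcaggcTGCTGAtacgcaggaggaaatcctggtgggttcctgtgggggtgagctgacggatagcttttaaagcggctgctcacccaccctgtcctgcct
Dab2, chr15:6299539-6299838, plus strand: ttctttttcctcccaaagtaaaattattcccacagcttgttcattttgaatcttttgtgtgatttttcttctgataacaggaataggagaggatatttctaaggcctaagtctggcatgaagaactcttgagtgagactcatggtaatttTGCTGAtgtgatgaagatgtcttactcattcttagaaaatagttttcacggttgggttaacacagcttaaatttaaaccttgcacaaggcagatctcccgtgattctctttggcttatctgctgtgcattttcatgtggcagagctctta
Each of the 3 windows held 1 match, so the motifs did not overlap: the PU.1 core on the minus strand in Pf4, and the MAF half-site in Stab1 and Dab2. Of the 15 genes highest in the DMSO members (below), 13 had a promoter in the table, and 2 of these held TGCTGA and 1 held AGGAAGT. Over all 27025 genes with a promoter of this length, the shares were 19.1% and 9.57%. A match is a string of letters and not a shown binding site.

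Members were deeper than the remaining cells. The median member had 11255 UMIs in the DMSO library and 11655 in the selinexor library, against 9139 and 9944 in the other cells of 2000 or more UMIs. Cells with 0 UMIs of Pf4, Maf and Stab1 under the same C1q and cycling limits had medians of 6928 and 7995. In all, the members held 509887 and 156281 gene UMIs. The median share of a member's tag counts that came from its library's own tag was 94.2% and 94.7%, and 0 barcodes occurred in both libraries.

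Members were more frequent in the DMSO library. They made up 3.01% of its cells with 2000 or more UMIs (43 of 1429, Clopper-Pearson interval 2.19% to 4.03%) and 1.27% of those in the selinexor library (15 of 1184, interval 0.711% to 2.08%). With every cell thinned to 2000 UMIs, which left out no cell of either group, the rule found 17 cells (1.19%) and 2 cells (0.169%). The C1q and cycling limits were applied to the thinned counts too, so these cells need not all be members. The cells were taken up for description with their excess in DMSO known, so this difference describes how they were chosen.

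Most members sat close to the lower limit of the rule. In the DMSO library 20 of 43 had exactly 2 UMIs of Pf4, Maf and Stab1 together, 10 had 3, and 4 had 8 or more, with 35 in the highest. In the selinexor library 14 of 15 had exactly 2 and 1 had 3. At a limit of 3 UMIs, 23 DMSO cells and 1 selinexor cell would remain.

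**Figure D1:**
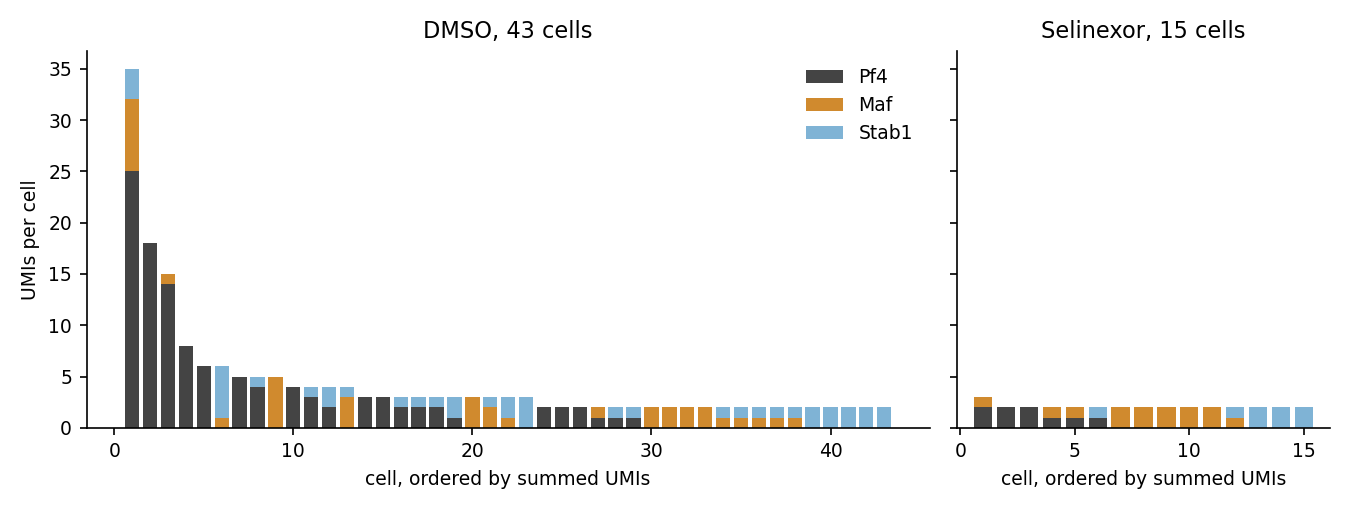
UMIs of Pf4, Maf and Stab1 in each of the 43 DMSO and 15 selinexor members, 1 bar per cell, stacked by gene and ordered by the sum. The 4 leftmost DMSO cells hold 8 to 35 UMIs, mostly Pf4, while every selinexor cell holds 2 or 3.

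Pf4 contributed 111 UMIs in 22 of the 43 DMSO members, 25 of them in the highest cell and 65 in the 4 highest. Maf contributed 37 UMIs in 18 cells and Stab1 41 UMIs in 25 cells. Only 1 DMSO member had all 3 genes, 10 had Pf4 alone, 6 Maf alone and 6 Stab1 alone, and 21 had at least 2 of the genes. In the 15 selinexor members Pf4 had 9 UMIs in 6 cells, Maf 14 in 9 cells and Stab1 8 in 5 cells. A C1q UMI was present in 4 DMSO members and 1 selinexor member.

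As a background level, granule-rich cells outside the members, which carried at least 50 UMIs of the neutrophil granule genes Camp, Ltf and Ngp and should lack these genes, had a UMI of Pf4, Maf or Stab1 in 2.90% of 345 DMSO cells and 4.65% of 301 selinexor cells (median 7857 and 6768 UMIs). Granule-rich cells that met the rule are counted as members (below), so the low counts of these cells are in part set by the selection. Cells just under the limit, with 1 UMI, numbered 81 in DMSO and 75 in selinexor. The median share of UMIs from macrophage markers was 0.175% in the 20 DMSO members with exactly 2 UMIs, 0.145% in the 81 cells with 1 and 0.0965% in the 841 cells with 0.

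The macrophage label was checked against marker lists of 16 cell types or stages, leaving out the genes of the rule. Markers of macrophages made up a median of 0.213% of UMIs in the 43 DMSO members (range 0.0813% to 1.24%), against 0.0894% in the other 1386 DMSO cells, and 42 of the 43 lay above the median of the others. In the 15 selinexor members the median was 0.226% (range 0 to 0.459%), against 0.117% in the others, and 12 of 15 lay above it. Markers of mature neutrophils took a median of 0.579% of UMIs in DMSO members and 12.5% in the other DMSO cells, but up to 33.6% in single members. The corresponding selinexor medians were 0.268% and 3.08%, with up to 17.0% in a member.

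The label did not hold for every member. The 6 DMSO members with Stab1 alone had a median of 25.8% of UMIs from mature neutrophil markers and 0.129% from macrophage markers, and the 6 with Maf alone had 5.62% and 0.149%. The 10 with Pf4 alone had 0.281% and 0.276%, and the 21 with at least 2 of the genes had 0.282% and 0.275%. By these markers, DMSO members with Pf4 or with several of the genes carried macrophage transcripts and little neutrophil RNA. DMSO members with Stab1 alone had a median neutrophil share above that of the other DMSO cells, and those with Maf alone lay between. The selinexor members did not show this order. Of the 3 with Stab1 alone, 0 lay above the neutrophil median of the other selinexor cells. Macrophage markers took a median of 0.307% in the 5 with Maf alone and 0.234% in the 2 with Pf4 alone. The selinexor member with the highest neutrophil share carried at least 2 of the genes, Pf4 among them. At least 50 UMIs of Camp, Ltf and Ngp were present in 1 DMSO and 3 selinexor members, and granule genes are given below with and without these cells. No doublet caller was run, and whether such cells are doublets was not tested.

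**Figure D2:**
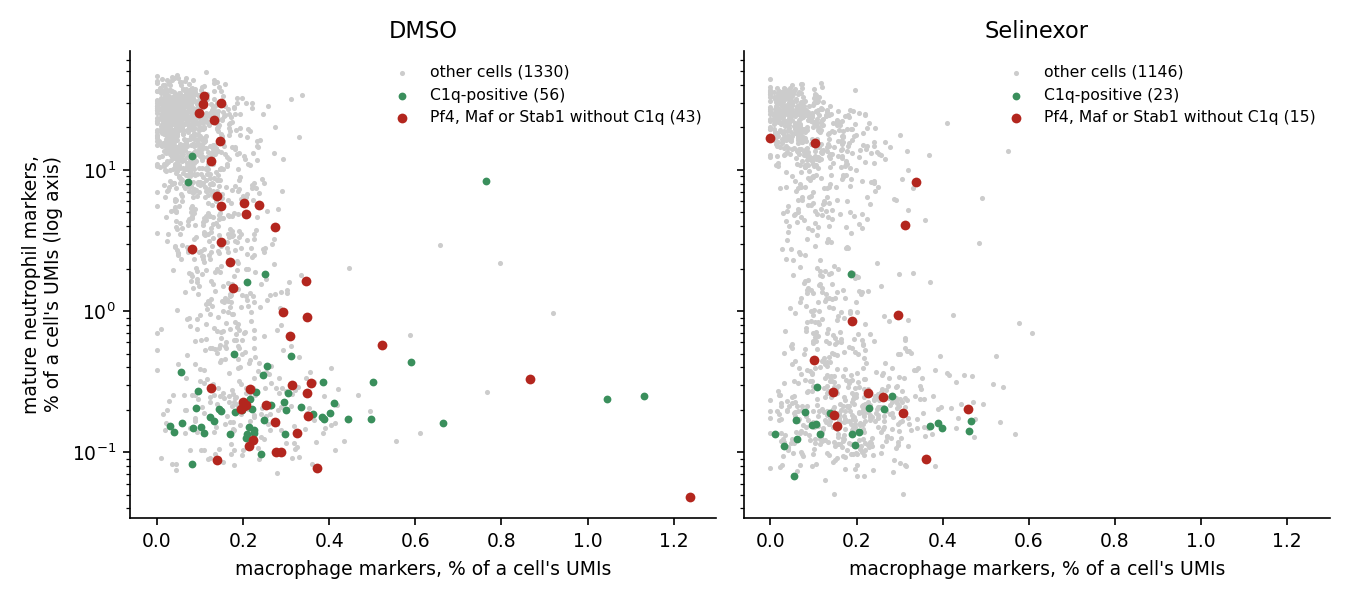
Share of each cell's UMIs from macrophage markers (x) and from mature neutrophil markers (y, log axis) in cells of 2000 or more UMIs, by library, with members in red, C1q-positive cells in green and the rest in grey. DMSO members spread from the low neutrophil shares of the C1q-positive cells into the grey cloud, with a median of 0.579% and an upper quartile of 5.23%, against 0.199% and 0.267% in C1q-positive cells.

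In the DMSO library the members were compared with all other cells of 2000 or more UMIs, C1q-positive cells included. Of the lists, macrophage markers (9 of 16 measured) and matrix and coagulation genes (10 of 17) were often at least 2-fold higher in members, and neutrophil granule and mitotic genes often lower. Among 9248 genes with at least 50 UMIs over both sides, 463 (5.01%) were at least 2-fold higher in members and 889 (9.61%) at least 2-fold lower, on the log2(CPM + 1) scale (CPM, a gene's UMIs scaled to 1000000 gene UMIs). The counting interval also left out equal levels for 386 and 404 of these. Under TMM scaling, which moved the median gene from 0.09 to -0.03, the counts were 317 and 1023, so the higher share of calls went from 34.2% to 23.7%. Log2 ratios below are members over the other cells of the same library.

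The rule for the highest ratios took 15 genes, of which 14 are described. They were led by Pid1, an inhibitor of insulin signalling, and Msr1, the class A scavenger receptor. Pid1 had 218 CPM in DMSO members and 65.9 in other DMSO cells (log2 ratio 1.71, interval 1.43 to 2.01), and 326 against 104 CPM in the selinexor library (1.64, interval 1.22 to 2.05). Msr1 had 284 against 90.6 CPM in DMSO (1.64, interval 1.39 to 1.90) and 218 against 83.2 CPM in selinexor (1.38, interval 0.85 to 1.88). Both genes were thus higher in members of either library by more than the counting error.

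Dab2, an endocytic adaptor, was at 482 against 162 CPM in DMSO (1.57) and 422 against 178 CPM in selinexor (1.24). It was detected in 40 of 43 DMSO members and in 51.9% of the other cells. Clec4d, a C-type lectin that senses mycobacterial lipid, had ratios of 1.39 and 1.45 and Mmp14, a membrane-bound matrix protease, 1.37 and 1.43. These 3 genes, with Pid1 and Msr1, were at least 2-fold higher in both libraries.

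The remaining 9 were Myof (1.55 in DMSO and 0.60 in selinexor), Sdc4 (1.51 and 0.79), the integrin Itga1 (1.44 and 0.15), Sh3pxd2b (1.42 and 0.21), Ahnak (1.35 and 0.82), Lrp1 (1.27 and 0.90), Zeb2 (1.25 and 0.63), Tgfbi (1.22 and 0.66) and Nrp2 (1.19 and 0.93). Lrp1 is an endocytic receptor of apoptotic cells and lipoproteins, Zeb2 a transcription factor of the monocyte lineage and Tgfbi a secreted matrix protein. In the selinexor library all 15 ratios were above 0 and their median was 0.90. The intervals of Myof, Itga1 and Sh3pxd2b in selinexor included 0.

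**Figure D3:**
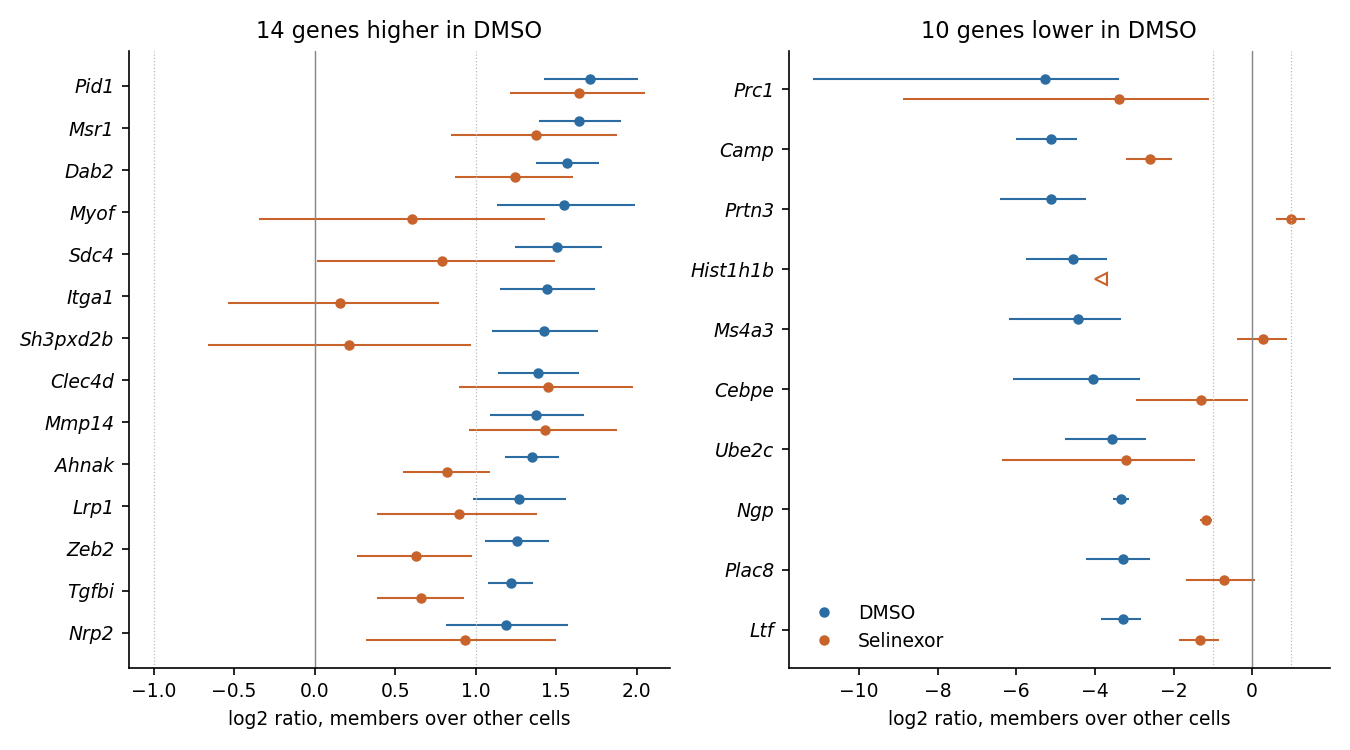
Log2 ratio (CPM + 1) of members over other cells for 14 of the 15 highest and the 10 lowest genes of the DMSO library, with 95% counting intervals, in DMSO (blue) and selinexor (orange). Dotted lines mark 2-fold, and the open triangle marks Hist1h1b, with 0 UMIs in selinexor members, at its bound against 3 UMIs. All 14 genes on the left lie above 0 in both libraries, whereas Prtn3 and Ms4a3 on the right lie on opposite sides.

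The other cells include many neutrophil precursors and cycling cells, which bears on how large these ratios are. Against the 778 other DMSO cells with under 50 UMIs of Camp, Ltf and Ngp and under 5 of Mki67 and Top2a, 208 genes were at least 2-fold higher and 314 lower. The 15 genes kept a positive ratio there, from 0.76 for Zeb2 to 1.22 for Pid1, with 7 of them still at least 2-fold higher (Pid1, Msr1, Dab2, Myof, Sdc4, Itga1 and Sh3pxd2b).

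Of 18 macrophage markers, 16 were measured and 9 were at least 2-fold higher in DMSO members, with none lower and a median log2 ratio of 1.03, against 0.09 over all genes. Mrc1, the mannose receptor CD206, stood at 296 against 81.0 CPM (1.86), with UMIs in 28 of 43 members and 264 of 1386 other cells, and Lgmn, a lysosomal protease, at 80.4 against 22.1 CPM (1.82). Csf1r, the receptor for CSF1, stood at 290 against 140 CPM (1.04) and was detected in 39 of 43 members. Mertk, Tlr4, Trem2, Apoe and Msr1 were also among the 9. All 9 UMIs of Apoe came from 1 member.

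Adgre1, which encodes F4/80, reached 80.4 against 54.4 CPM (0.55), below the 2-fold limit. Cd163 and Vsig4, markers of resident macrophages, had 0 UMIs in the members. Both had under 50 UMIs over members and other DMSO cells together, too few for this to set members apart. Against the 778 cells named above 5 macrophage markers were at least 2-fold higher, among them Mrc1 (1.43), while Csf1r was at 0.55. With TMM scaling 6 were.

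In the selinexor library 15 macrophage markers were measured, of which 4 (Mrc1, Tlr4 and Msr1 among them) were at least 2-fold higher in members, with a median of 0.35. Mertk and Apoe counted as lower at 0 UMIs in members, but both lay under the 3 UMIs that a count of 0 allows, so no difference was detectable at this depth. Background counts there were 696 of 9228 genes higher (7.54%) and 1676 lower (18.2%). Only 274 and 184 of those had an interval that left out equal levels, and 36.3% of measured genes had under 3 UMIs in the 15 members, so the lower calls of single genes mostly rest on very few molecules. Mrc1 was at 512 against 193 CPM (1.41). Csf1r stood at 179 against 141 CPM (0.35, interval -0.24 to 0.89), which counting error does not separate.

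Genes of extracellular matrix and coagulation were high in the DMSO members, with 10 of 17 measured at least 2-fold higher, none lower and a median of 1.17. Serpinb2, which encodes a plasminogen activator inhibitor, led with 19 UMIs in 8 members against 100 UMIs in 48 other cells (2.17). Fn1, fibronectin, was at 290 against 80.8 CPM (1.83), with UMIs in 20 of 43 members, and Mmp12, the macrophage elastase, at 1965 against 553 CPM (1.83), although 1 member held 269 of its 1002 UMIs. F7, coagulation factor VII, stood at 212 against 85.9 CPM (1.29). Against the 778 non-granule, non-cycling cells 3 of these genes were still at least 2-fold higher. In selinexor members 5 of 16 measured were higher and 2 (Timp1 and Plau, at 0 UMIs in members) lower (median 0.55), and Fn1 was at 1267 against 712 CPM (0.83).

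Lysosomal genes leaned the same way at smaller sizes: 6 of 29 were at least 2-fold higher in DMSO members, none lower, with a median of 0.74. They were Ctsa, Lgmn, Glb1, Gpnmb, Atp6v0d2 and Cln8. Without the member that had the most Pf4, Maf and Stab1 UMIs, the ratio of Atp6v0d2 was -0.39 and 5 genes were counted. The whole list took a median of 0.866% of UMIs in members and 0.535% in the other DMSO cells, and 1.22% against 0.870% in the selinexor library.

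Of 12 genes of lipid handling 4 were higher in DMSO members and none lower (median 0.79). Abca1, the cholesterol exporter, stood at 86.3 against 17.1 CPM (2.27), and Lpl, lipoprotein lipase, at 1498 against 700 CPM (1.10). With TMM scaling 2 were.

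Chemokine genes went both ways in DMSO members: of 13 measured, 6 (Ccl2, Ccl9, Cxcl1, Cxcl2, Cxcl3 and Cxcl16) were at least 2-fold higher and 4 (Ccl5, Ccl17, Ccl22 and Cxcl10) lower. Of the lower ones Ccl5, Ccl22 and Cxcl10 had 0 UMIs in members. Against 3 UMIs, Ccl22 was at least 2.96-fold and Ccl5 at least 1.13-fold lower, and Cxcl10 lay under 3 UMIs' worth on both sides, so only Ccl17 and Ccl22 are shown 2-fold lower. Ccl2, the main monocyte attractant, stood at 133 against 17.2 CPM (2.88, interval 2.54 to 3.35), with 30 of its 68 UMIs in 1 cell. In selinexor members Ccl2 was at 371 against 23.7 CPM (3.91), from 2 cells. Ccl17, a dendritic cell chemokine, had 3 UMIs in DMSO members (5.88 against 199 CPM, -4.86).

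Among 31 measured myeloid transcription factors 4 were higher (among them Zeb2, Egr2 and Prdm1) and 5 lower (Cebpe, Klf2, Pparg, Gfi1 and Stat5b). Cebpe, required for neutrophil granule formation, was at 7.84 against 145 CPM (-4.05). Of 20 receptors for growth factors and cytokines 4 were higher (Csf1r, Ifngr2, Ifnar1 and Tnfrsf1b) and 1 lower (Il1r2). Of 12 Fc and complement receptors, Fcgr2b and C3ar1 were higher and Fcgr4 lower. None of 6 NADPH oxidase genes was 2-fold higher or lower, and of 20 nuclear transport genes none was higher and 2 were counted lower (Rcc1, at 2 UMIs, and Kpna2, at 0 UMIs and so at least 1.81-fold lower). Of 17 chemokine and migration receptors 1 was higher and 4 lower, among them Cxcr2, Cxcr4 and Ccr7 (0 UMIs in members). Scavenger and lectin receptors had 4 of 12 higher and 3 lower, genes of apoptotic cell uptake 2 of 12 higher (Mertk and Lrp1) and none lower, and iron and haem genes 1 of 8 higher and 2 lower.

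The genes lowest in DMSO members belonged to neutrophil granules and the cell cycle. The 10 named by rule were Prc1, Camp, Prtn3, Hist1h1b, Ms4a3, Cebpe, Ube2c, Ngp, Plac8 and Ltf. Camp, the cathelicidin of specific granules, had 29.4 CPM in members and 1061 in other cells (-5.13), and Prtn3, proteinase 3 of primary granules, 15.7 against 579 CPM (-5.12). Ngp stood at 398 against 4035 CPM (-3.34), with 128 of its 203 UMIs in 1 member. Prc1, a mitotic spindle gene, had 1 UMI in members.

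The rule itself kept cells with cycling genes out of the members, so the low mitotic genes (16 of 17 at least 2-fold lower) are not independent of the selection. The same limit bears on S phase genes, of which 7 of 16 were lower and none higher, and 1 lower against the 778 non-granule, non-cycling cells. Of the granule lists, 5 of 5 primary granule genes and 7 of 9 specific and gelatinase granule genes were at least 2-fold lower, and 9 of 11 mature neutrophil markers were. The primary granule median was -5.12 with Mpo, at 0 UMIs in members and at least 8.05-fold lower, placed at its bound. Mmp8, the neutrophil collagenase, ran the other way at 1759 against 858 CPM (1.04). Against the 778 non-granule, non-cycling cells Prtn3 (-3.09), Ms4a3 (-2.70) and Plac8 (-2.29) were still low. Ltf stood at 0.76, Ngp at 0.07 and Camp at -0.40 there. The 778 cells were chosen by low counts of Ltf, Ngp and Camp, while the granule-rich member was kept. These ratios are therefore in part set by that choice. Without the member that had 50 or more Camp, Ltf and Ngp UMIs, the ratios to all other cells were -6.88 for Camp, -4.74 for Ngp and -4.72 for Ltf.

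In the selinexor library 8 of the 10 genes were also below the other cells and 7 at least 2-fold so, with a median of -1.31. Prtn3 (0.99) and Ms4a3 (0.29) stood above them. Of the 64 Prtn3 UMIs 61 came from 1 cell, and all 22 Ms4a3 UMIs came from 1 cell. Without the 3 members with 50 or more Camp, Ltf and Ngp UMIs, Prtn3 was at -4.54, Camp at -5.91, Ngp at -6.37 and Ltf at -5.99, and Ms4a3 had 0 UMIs, so neither Prtn3 nor Ms4a3 stood above the other cells there. Against the 642 other selinexor cells that were neither granule-rich nor cycling, Camp (2.52), Ltf (3.57), Ngp (2.72) and Cebpe (0.98) stood above 0. Those cells were chosen by low Camp, Ltf and Ngp, but the 3 granule-rich members were kept. The ratios of Camp, Ltf and Ngp are therefore in part set by that choice.

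Monocyte markers were present in the members as well. They took a median of 0.574% of UMIs in DMSO members and 0.512% in the other DMSO cells, and 0.904% and 0.807% in the selinexor library. Granule-rich cells had higher medians, 0.903% in DMSO and 1.25% in selinexor, so this share does not set members apart. The list includes Chil3, which is also in the specific granule list. Of 14 measured in DMSO 5 were at least 2-fold higher (Fn1, F13a1, Ms4a6c, Ctss and Csf1r) and 2 lower (Chil3 and Ear2), with a median of 0.82, and against the 778 non-granule, non-cycling cells 1 was higher and 1 lower. In selinexor 2 of 14 were higher (Vcan and Ms4a6c) and 2 lower (Chil3 and Irf8), with a median of 0.58.

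Markers of megakaryocytes, endothelium, stroma and lymphocytes were scarce. Of 14 megakaryocyte and platelet genes, 11 had 0 UMIs in the 43 DMSO members, among them Ppbp, Itga2b and Gp9, although Pf4 itself is a platelet gene. Vwf, also made by megakaryocytes, had 9 UMIs in 8 members (17.6 against 4.72 CPM). Of 9 endothelial genes, 5 had 0 UMIs, including Cdh5, Lyve1 and Stab2. Of 15 dendritic cell markers 8 had 0 UMIs and none of 7 measured was higher. All 6 stromal markers, 8 of 9 T and NK cell markers and 5 of 7 B cell markers had 0 UMIs. Outside the rule's genes, only 2 megakaryocyte and platelet, 1 endothelial, 1 T and NK cell and 2 B cell genes counted as measured. No stromal gene did. The remaining genes of these lists had too few UMIs over members and other DMSO cells for a 0 to set members apart. Itgam, which encodes the sorted antigen CD11b, had UMIs in 41 of 43 DMSO and 13 of 15 selinexor members.

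Of 16 measured genes of myeloid suppression none was 2-fold higher in DMSO members and 2 (S100a8 and S100a9) were lower, with a median of 0.04. In selinexor members 3 of 14 were higher (Arg2, Cd274 and Il1b) and 4 lower, with a median of 0.14. Cd274, the checkpoint ligand PD-L1, stood at 37.3 against 19.7 CPM in DMSO (0.88, interval 0.16 to 1.59) and 128 against 46.1 CPM in selinexor (1.45, interval 0.75 to 2.11). Arg1 (arginase 1) and Il10 had 0 UMIs in both groups and Nos2 had 1 UMI in the DMSO members. Against C1q-positive DMSO cells 2 of 10 were higher (S100a8 and S100a9) and 1 lower (Il4ra), with a median of 0.38. Of 8 measured genes of alternative macrophage activation only Mrc1 was higher, and Chil3, Mgl2, Ccl17 and Pdcd1lg2 were counted lower, Pdcd1lg2 at 0 UMIs in members and so at least 1.53-fold lower. Among type I interferon response genes 1 of 14 was higher (Xaf1) and 3 lower (Irf7, Ifitm3 and Ifit1, the last at 0 UMIs in members).

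The members were also set beside C1q-positive cells, which had at least 2 C1q UMIs under the same limit on cycling genes (56 DMSO cells). Of these, 27 also had a UMI of Pf4, Maf or Stab1, with 219 Pf4 UMIs, so the rule for members cuts within cells that share these genes. C1q was at 7.84 CPM in members and 1673 in C1q-positive cells, as the selection fixes. Outside the rule's genes, 56 of 3148 (1.78%) stood at least 2-fold higher in members and 133 (4.22%) lower, and for all of these the counting interval left out equal levels.

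The clearest difference lay in MHC class II, the molecules that present antigen to CD4 T cells. Of 9 measured genes of this list 8 were at least 2-fold lower in members, with a median of -3.04, against -0.01 over all genes, and summed levels of 3367 against 18945 CPM. H2-Aa stood at 326 against 2681 CPM (-3.04, interval -3.28 to -2.81), H2-Ab1 at 288 against 2930 CPM (-3.34) and H2-Eb1 at 104 against 2063 CPM (-4.30). Cd74, the invariant chain, stood at 1555 against 8761 CPM (-2.49), and Ciita, the master regulator of the class, had 9 UMIs in members and 170 in C1q-positive cells (-3.83). These 5 genes were all lower in members by far more than the counting error.

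Per cell, class II genes took a median of 0.173% of UMIs in members (range 0 to 1.66%), 2.09% in C1q-positive cells (range 0.108% to 4.99%) and 0.0430% in the other DMSO cells. The groups overlapped. Members with at least 3 UMIs of Pf4, Maf and Stab1 had a higher median, 0.354%, and the ratio of H2-Aa to C1q-positive cells was then -2.12. In the selinexor library the medians were 0.157% in 15 members and 0.397% in 23 C1q-positive cells.

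**Figure D4:**
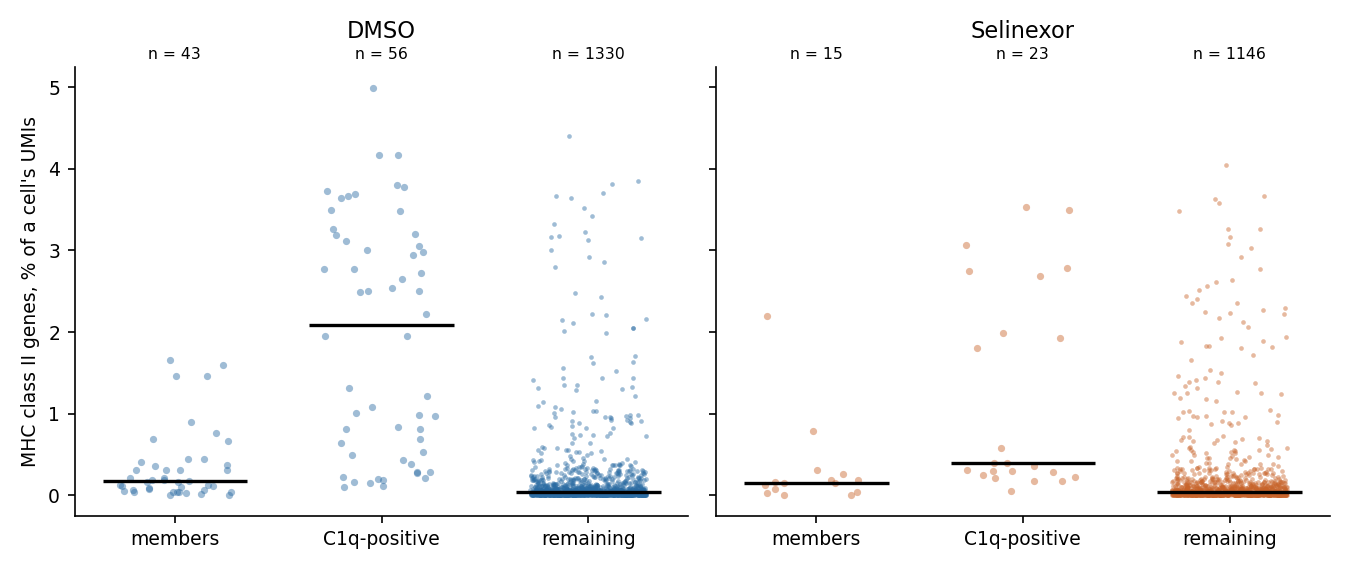
MHC class II genes as a share of each cell's UMIs in members, C1q-positive cells and the remaining cells of 2000 or more UMIs, by library; the black bar is the median. DMSO members centre on 0.173% and C1q-positive DMSO cells on 2.09%, with overlap between them.

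Genes of dendritic cells were low beside class II. Those of alternative activation went both ways: 6 were measured with a median of -0.73, and Chil3 was at least 2-fold higher (below). Mgl2, a C-type lectin of dendritic cells and alternatively activated macrophages, had 27.5 CPM in members and 679 in C1q-positive cells (-4.58), Ccl17 5.88 against 1164 CPM (-7.40) and Itgax, CD11c, 74.5 against 165 CPM (-1.13). All 3 measured dendritic cell markers (Itgax, Ccl17 and H2-DMb2) were at least 2-fold lower. Vrk1, a nuclear kinase, was at 47.1 against 203 CPM (-2.09).

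Higher in members than in C1q-positive cells were Wfdc21 (2881 against 1035 CPM, 1.48), the chemokines Ccl3 (200 against 71.5 CPM, 1.47) and Ccl6 (3232 against 1401 CPM, 1.21), the receptor Clec5a (210 against 79.2 CPM, 1.39), the glutathione reductase gene Gsr (1.30), Igsf6 (1.22) and the peroxiredoxin gene Prdx4 (1.16). Ftl1-ps1 (1.44) is by its symbol a copy of Ftl1, and how the counting split UMIs between them was not tested.

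Of 12 measured monocyte markers 3 were at least 2-fold higher in members (Ly6c2, Vcan and Chil3) and none lower, with a median of 0.27, while the list took 0.574% of UMIs in the median member and 0.521% in the median C1q-positive cell. Of 4 measured mature neutrophil markers S100a8 and S100a9 were higher and Il1r2 lower. Ly6c2, an antigen of inflammatory monocytes, was at 602 against 189 CPM (1.66), Vcan, versican, at 390 against 191 CPM (1.03), and S100a8 and S100a9 had ratios of 2.13 and 2.05. With members of at least 3 Pf4, Maf and Stab1 UMIs neither S100 gene was 2-fold higher. By contrast, the macrophage list did not separate the populations: of 13 measured markers none was 2-fold higher or lower, the median was -0.01, and its summed level was 2512 against 2588 CPM. With genes of 20 or more UMIs counted, 2 macrophage markers were lower.

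The 15 identity genes followed that pattern. Their median ratio to C1q-positive cells was 0.01, 9 were above 0 and 1 was at least 2-fold higher. Mrc1 (-0.39) and Csf1r (-0.33) were somewhat lower in members than in C1q-positive cells, with intervals that left out 0.

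**Figure D5:**
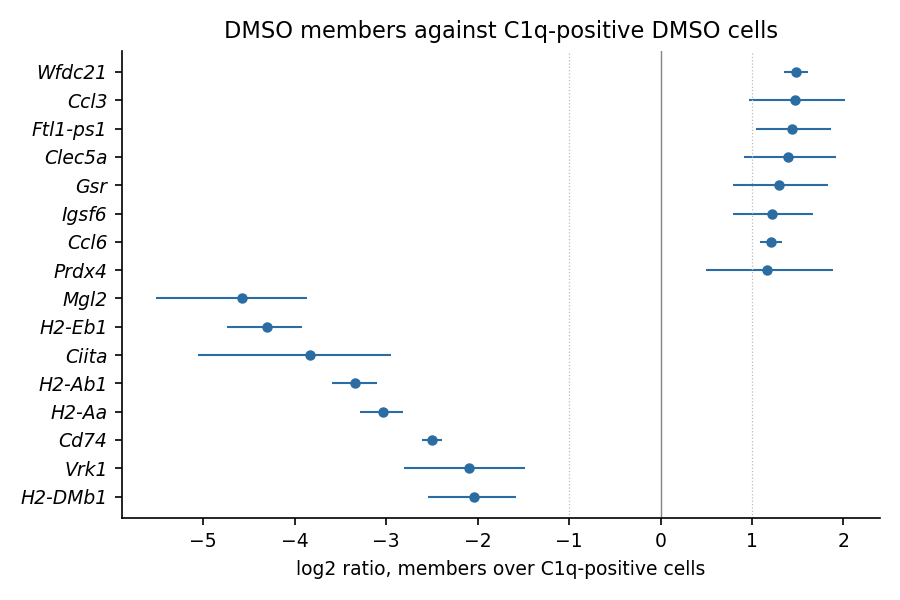
Log2 ratio (CPM + 1) of the 43 DMSO members over 56 C1q-positive DMSO cells for the 8 highest and 8 lowest genes, with 95% counting intervals; dotted lines mark 2-fold. The lower genes are led by Mgl2 (-4.58) and MHC class II genes, and the 8 higher genes lie between 1.16 and 1.48.

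Members were split by whether Pf4 was present. The 22 DMSO members with Pf4 had a median of 0.275% of UMIs from macrophage markers and 0.245% from mature neutrophil markers, and the 21 without Pf4 had 0.149% and 4.89%. Class II took 0.364% and 0.0622%. In the selinexor library macrophage markers took 0.190% in the 6 members with Pf4 and 0.262% in the 9 without. With Pf4, 45 of 1381 genes stood at least 2-fold higher and 31 lower. This split uses a gene of the rule and is a description.

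With Pf4, Cd74 stood at 2373 against 702 CPM (1.76), Fn1 at 438 against 136 CPM (1.68), the inhibitory Fc receptor gene Fcgr2b at 491 against 136 CPM (1.84) and Mmp12 at 2830 against 1062 CPM (1.41). Without Pf4, S100a8 stood at 38533 against 6485 CPM, Lcn2 at 2630 against 230 CPM, Ngp at 770 against 42.2 CPM and Spp1, osteopontin, at 1868 against 472 CPM. These genes were chosen after their values were seen. DMSO members with Pf4 thus lay nearer to the C1q-positive DMSO cells in class II and in S100a8, which stood at 5045 CPM there.

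The 15 selinexor members were set beside 184 Fn1-high selinexor cells, cells with at least 10 Fn1 UMIs, at most 1 C1q UMI and the same limit on cycling genes. Between them 142 of 5355 genes (2.65%) stood at least 2-fold higher in members and 470 (8.78%) lower, with the interval leaving out equal levels for 107 and 103. The macrophage list did not separate them, with 1 of 13 higher, 1 lower and a median of -0.02. Mrc1 (0.27), Msr1 (0.34) and Csf1r (-0.33) all had intervals that included 0. Ly6c2 was at 1158 against 758 CPM (0.61). Of 6 measured genes of specific and gelatinase granules 4 were at least 2-fold higher in members. The 3 members with 50 or more Camp, Ltf and Ngp UMIs are among the 15, and their part in these counts was not tested.

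Set against the DMSO members, the selinexor members had 47 of 1835 genes (2.56%) higher by 2-fold or more and 93 (5.07%) lower. Under TMM scaling the counts were 64 and 80, which put the higher share of calls at 44.4% in place of 33.6%. Only 2 genes met the rule for naming the highest ratios, Frrs1 (198 against 90.2 CPM, 1.13, detected in 15 of 15 selinexor members) and Rack1 (1542 against 1165 CPM, 0.40). The rule lets no cell hold over 10% of a gene's UMIs, a limit hard to meet over 15 cells.

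Xpo1, the target of selinexor, stood at 173 CPM in selinexor members and 60.8 in DMSO members (27 and 31 UMIs, 1.49, interval 0.71 to 2.30). Among all selinexor cells it was not particular to members, with 173 against 193 CPM in the others (-0.16). The 1 selinexor member with 3 Pf4, Maf and Stab1 UMIs had 0 Xpo1 UMIs, too few in all to show a difference. Fn1 was at 1267 against 290 CPM (2.12) and Vcan at 934 against 390 CPM (1.26). Fn1 was also higher in the other selinexor cells than in the other DMSO cells (values above), so its difference was not particular to members. Ighm, an immunoglobulin heavy chain gene, had 64 UMIs in 12 of 15 selinexor members and 5 UMIs in 4 of 43 DMSO members (5.25). In the other selinexor cells it stood at 221 CPM, against 410 CPM in the members. Cybb, a subunit of the NADPH oxidase, stood at 1593 against 665 CPM (1.26).

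The 8 named lower genes were Enah, an actin regulator (1 UMI in selinexor members and 69 in DMSO members, -4.20), Commd3 (-2.03), Abr (-1.95), Prdx4 (-1.95), Clec5a (-1.70), the calcium channel gene Orai1 (-1.56), Sdf2l1 (-1.55) and Tmco1 (-1.49), with 1 to 10 UMIs each in the selinexor members. Of 4 measured interferon response genes 3 were at least 2-fold lower, namely Ifi27l2a, Ifitm3 and Bst2. Ifitm3 was at 179 against 469 CPM (-1.38). Class II genes summed to 3398 CPM in selinexor members and 3367 CPM in DMSO members.

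Of 8 macrophage markers measured between the libraries 1 was higher (Cd14) and 2 lower (Cd68 and Trem2), with a median of -0.51. Mrc1 was at 512 against 296 CPM (0.79, interval 0.38 to 1.19) and Csf1r at 179 against 290 CPM (-0.69, interval -1.33 to -0.11). Mrc1, too, was higher in the other selinexor cells than in the other DMSO cells (values above). Prtn3 and Elane were higher in selinexor members (4.62 and 6.24), but 61 of 64 Prtn3 UMIs and all 58 Elane UMIs came from 1 cell. Because 14 of the 15 selinexor members stood at the lower limit of the rule, against 20 of 43 DMSO members, the compared cells differ in how firmly they met it.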

How the data were processed

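Single-cell RNA was measured in 2 libraries, 1 per treatment. The deposited matrices hold whole-number UMI counts, not normalized. Cell Ranger 6.1.2 and build mm10 are named, per the submitters' processing notes. Annotation release and rule for calling barcodes: not given in the sources used here. Deposited feature tables list 32285 genes and 12 tags, and tag counts were kept out of gene totals. Of 1784 DMSO and 1989 selinexor barcodes, 1743 and 1967 were kept, with 14222344 and 12841480 gene UMIs.

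Members, 17 marker sets (1 of them the rule's genes) and 21 gene lists were chosen with earlier results of these data known. Gene counts were summed over the cells of a class, scaled to CPM and compared as log2(CPM + 1), which understates changes of low genes. Genes with at least 50 UMIs over both sides count as measured, and a call is a 2-fold difference. The genes of the rule were left out of all counts. Ratios have exact conditional binomial intervals and shares Clopper-Pearson intervals at 95%. Genes at 0 UMIs were bounded against 3 UMIs over the class.

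Named genes had at least 100 CPM and UMIs in at least 20% of cells on the higher side, with no cell holding over 10% of that side's UMIs. Mitochondrial, ribosomal, haemoglobin and unnamed genes were left out. The 15 highest and 10 lowest against other DMSO cells, and the 8 highest and 8 lowest of the other comparisons, were taken, with up to 5 genes per list and 12 genes of interest. Other list members named in the text were picked with their values seen. No doublet caller was run. Python 3.11.15, numpy 2.4.6, scipy 1.17.1, matplotlib 3.10.9 and edgeR 4.0.16 (TMM factors only) in R 4.3.3 were used, and the ratio code was tested on simulated counts. Coordinates came from a GENCODE annotation of mm10 by Ensembl identifier (173 of 173 genes matched). Intervals cover counting error only, and the spread between cultures is unknown with 1 library per group. Some genes counted in these lists are not reported here.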

Additional observations from a re-analysis of the deposited data

Results flagged for a closer look

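For 4 named genes the members of the 2 libraries differed from the other cells in opposite directions, each by more than its counting interval. Enah, Commd3 and Orai1 were named for low ratios of selinexor to DMSO members, so their opposite directions are in part set by that choice. The difference between the libraries was not tested, since each group held 1 library. Prtn3 had a log2 ratio of -5.12 in the DMSO library and 0.99 in the selinexor library, where 61 of its 64 UMIs came from 1 cell, and without the 3 granule-rich selinexor members its ratio there was -4.54. Enah was at 0.45 in DMSO and -3.00 in selinexor, with 1 UMI in the selinexor members. Commd3 was at 0.57 and -1.25, with 5 UMIs. Orai1 was at 0.44 and -0.91, with 10 UMIs.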

How the results depend on the processing

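No paired analysis was possible because each group held 1 library with no replicate number. Most counts of genes depended on how many UMIs a gene needed, the pseudocount and the cells compared. Counts are given as higher and lower by at least 2-fold. Against other DMSO cells (463 and 889 as reported) there were 874 higher genes with members of 3 or more UMIs of the rule's genes Pf4, Maf and Stab1 (rule UMIs), 1337 lower genes at 20 UMIs per gene, 171 and 389 at 200 UMIs, 117 and 271 with a pseudocount of 10 CPM, 208 and 314 against the 778 non-granule, non-cycling cells, and 404 lower genes where the interval left out equal levels. Against other selinexor cells (696 and 1676) there were 1889 and 6050 with the 1 member of 3 or more rule UMIs, 2534 lower genes at 20 UMIs per gene, 256 and 642 at 200, 221 and 592 with the larger pseudocount, 2530 lower genes with members at 0 Mki67 and Top2a UMIs, 378 and 1011 against the 642 non-granule, non-cycling cells, and 274 and 184 beyond the interval. Against C1q-positive DMSO cells (56 and 133) there were 153 and 412 at 20 UMIs and 23 and 20 at 200. Between the member groups (47 and 93) there were 75 and 184 at 3 or more rule UMIs, 242 and 316 at 20 UMIs per gene and 9 and 14 at 200. Fewer or more genes enter at these gene limits; for the other settings the cause was not tested. The share of members was 1.61% in DMSO and 0.0845% in selinexor at 3 or more rule UMIs. After thinning, 1.19% and 0.169% of cells met the rule on thinned counts. Among named genes past 2-fold, those whose ratio took the other sign were Atp6v0d2 in DMSO (-0.30 with members at 0 Mki67 and Top2a UMIs, -0.39 without the member with most rule UMIs), Prc1 in selinexor (0.27 at 3 or more rule UMIs) and Xpo1 between member groups. Xpo1 was at -6.19 there, which is what 0 UMIs in 1 cell give and shows no change of sign. Against the non-granule, non-cycling cells Ltf (0.76) and Ngp (0.068) in DMSO and Camp (2.52), Cebpe (0.98), Ltf (3.57) and Ngp (2.72) in selinexor did so too. Those cells were chosen by low Camp, Ltf and Ngp while granule-rich members were kept, which in part sets the signs of these genes. Among genes under 2-fold, Prtn3 in selinexor (-4.54) took the other sign without the 3 granule-rich members, where Ms4a3 had 0 UMIs, and Cd74 in DMSO was at 0.15 against all other cells and -0.44 against the non-granule, non-cycling ones. Of the named genes past 2-fold, 101 of 104 against other DMSO cells, 12 of 17 against other selinexor cells, 24 of 24 against C1q-positive DMSO cells and 11 of 12 between member groups kept their sign in every setting run. The comparison without granule-rich and cycling cells, the interval rule and the settings that leave out single or granule-rich members were chosen after seeing the data. With 156281 UMIs over 15 cells, 36.3% of genes measured in selinexor had under 3 UMIs in members, which limits calls of lower genes there.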
